A study of Mus musculus with 18 samples.

Results

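The genes described here are 33 genes of fatty acid oxidation and of its control by peroxisome proliferator-activated receptors (PPARs), taken by name from a list. Of these, 32 were measured, out of 19057 genes on the array, and Acsl1 was not analysed here. Each gene was read from its brightest probe, the probe with the highest mean log2 intensity over all 18 arrays. The cells were myotubes of C2C12, an established mouse myoblast line whose cells fuse into muscle fibre-like tubes. They were kept in DMEM with horse serum and received 1 uM dexamethasone (Dex), a synthetic glucocorticoid that binds the glucocorticoid receptor, or the vehicle ethanol at 0.01% of the medium volume. Total RNA was taken at 6 h or 24 h. At 6 h each agent had 4 arrays, and at 24 h each had 5. Triplicates are mentioned in the design text, but the titles number the samples of a group to 4 or 5, and all of them were used. Whether the samples of a group were separate cultures is not stated in any label, so the p-values rest on the spread among these samples alone, and that spread may be technical. A bulk sample cannot tell fewer cells of a kind from less RNA per cell.

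Long-chain fatty acids are activated to acyl-CoA by the long-chain acyl-CoA synthetases, pass into mitochondria through the carnitine shuttle, and are shortened in repeated rounds of the beta-oxidation spiral. Each round is a dehydrogenation, a hydration, a second dehydrogenation and a thiolytic cleavage, and the electrons of the first step leave through electron transfer flavoprotein. Auxiliary isomerases and a reductase handle double bonds, and thioesterases release free fatty acids from acyl-CoA. Many of these genes are targets of PPARs, nuclear receptors that bind DNA with a retinoid X receptor as partner, and the coactivators PGC-1alpha and PGC-1beta increase their activity. In muscle this programme is known for its rise with fasting and endurance exercise.

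The median intensity of an array was 99.8 to 100.4 at 6 h but 85.2 to 86.8 at 24 h, so levels were compared within a time only. Each of the 10 measured myotube markers of 12 listed reached 1.5 times the array median on at least 1 array, and their summed intensities were 147500 to 166100 at 24 h. Of 7 measured adipocyte markers, 6 lay near the median on every array (under 1.5 times it), Adipoq and Fabp4 among them. The arrays of a time spread around their group means in fewer directions than independent arrays can: 1 of 6 directions at 6 h and 3 of 8 at 24 h held under 0.1% of the spread. The fit therefore counts more independent arrays than the values hold, and a second adjusted p, from a fit with these missing directions as covariates, is given beside the calls of the 32 genes. It was not computed for single probes.

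After 6 h, none of the 32 genes rose and 1 fell, the dehydrogenase gene Hadh (Benjamini-Hochberg adjusted p under 0.05 over all 19057 genes in limma). Over all genes tested, 9.06% were called at this time. Before adjustment, 7 of the 32 had a limma p under 0.05, Hadh among them. So had 4232 of all 19057 genes, which is about the same share. After 24 h, 4 genes rose and 4 fell, which is 25.0% of the 32 beside 16.5% of all genes. Those that rose were Ppargc1b, Ppargc1a, Ppard and Acadm, and those that fell were Acaa2, Acsl3, Acot2 and Eci2. With the missing directions as covariates no member was called at 6 h, where 4.46% of all genes were, and 2 rose and 4 fell at 24 h, where 8.89% of all genes were called. The median log2 difference of the 32 was 0.0097 at 6 h and 0.0086 at 24 h, against 0.0030 and -0.0001 over all genes, so the set as a whole lay near 0 at both times. The median size of the difference, whatever its sign, was 0.11 at 6 h and 0.12 at 24 h, against 0.0782 and 0.0825 over all genes. The 2 Dex comparisons share no arrays, and 19 of the 32 genes (59.4%) had the same sign in both, beside 56.2% of all genes.

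**Figure D1:**
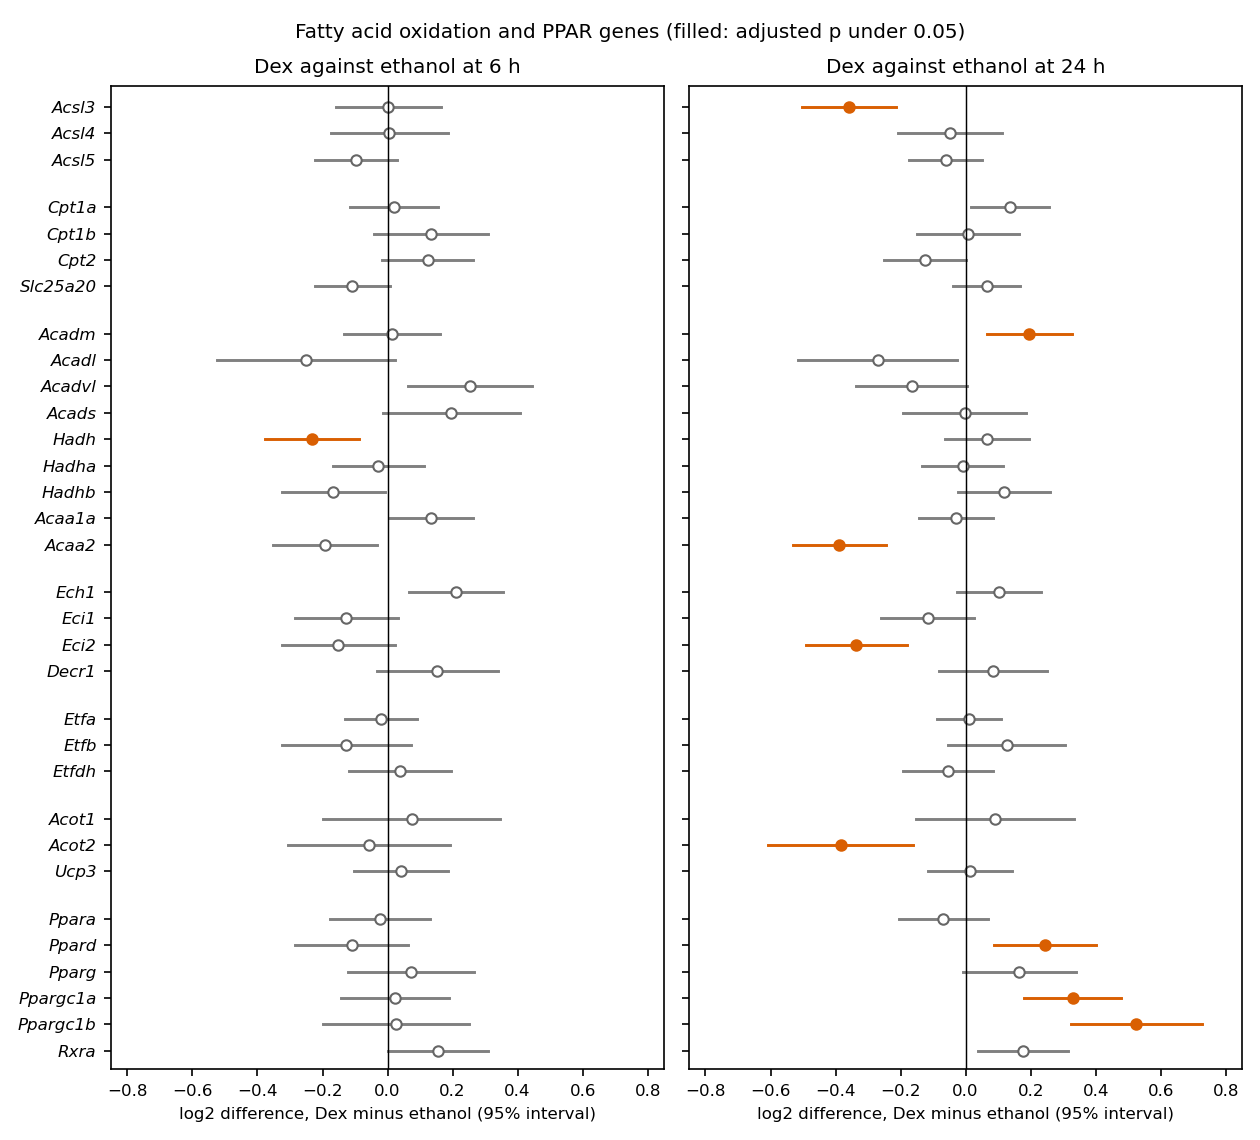
Log2 difference between Dex and ethanol for each of the 32 measured genes, at 6 h (left, 4 arrays a group) and 24 h (right, 5 arrays a group), with 95% intervals from limma, grouped by role. Filled orange points passed an adjusted p of 0.05: 1 gene at 6 h and 8 at 24 h, with 3 of the 4 rises at 24 h in the bottom group of receptors and coactivators.

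In 2 of the 32 genes at 6 h, Hadh and Hadhb, the 4 Dex arrays all lay below the 4 ethanol arrays, and no gene had all Dex arrays above. Such groups without overlap made up 10.9% of all genes. At 24 h there were 8, with Dex higher for Cpt1a, Ppargc1a and Ppargc1b and lower for Acsl3, Acadl, Acadvl, Acaa2 and Eci2, beside 16.3% of all genes. Cpt1a, Acadl and Acadvl were not called.

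The bases just upstream of the start sites are shown for 5 genes called at 24 h, since these genes changed at the same time, some up and some down. They are the 250 bases before a RefSeq transcript start, read 5′ to 3′ on the gene's own strand (GRCm38.p6). Ppargc1a (chr5:51567726-51567975, minus strand) and Acadm (chr3:153944644-153944893, minus strand) rose, and Acsl3 (chr1:78657575-78657824, plus strand), Eci2 (chr13:34994145-34994394, minus strand) and Acot2 (chr12:83987611-83987860, plus strand) fell. Of the other genes called at 24 h, Ppard is not shown, and no promoter was matched for Acaa2 and Ppargc1b. Capitals mark the nuclear receptor hexamer AGGTCA on either strand; only the Acadm stretch holds it, 249 bases before the start and read here as its reverse complement.
Ppargc1a: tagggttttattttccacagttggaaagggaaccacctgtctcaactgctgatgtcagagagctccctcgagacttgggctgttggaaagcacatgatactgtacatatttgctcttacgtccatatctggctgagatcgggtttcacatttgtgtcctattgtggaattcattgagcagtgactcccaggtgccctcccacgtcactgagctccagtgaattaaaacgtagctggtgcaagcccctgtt
Acadm: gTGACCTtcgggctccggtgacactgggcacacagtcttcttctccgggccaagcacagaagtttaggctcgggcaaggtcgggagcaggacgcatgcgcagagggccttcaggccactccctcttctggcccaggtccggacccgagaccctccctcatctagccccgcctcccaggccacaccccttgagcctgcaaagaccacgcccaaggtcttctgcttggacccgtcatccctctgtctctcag
Acsl3: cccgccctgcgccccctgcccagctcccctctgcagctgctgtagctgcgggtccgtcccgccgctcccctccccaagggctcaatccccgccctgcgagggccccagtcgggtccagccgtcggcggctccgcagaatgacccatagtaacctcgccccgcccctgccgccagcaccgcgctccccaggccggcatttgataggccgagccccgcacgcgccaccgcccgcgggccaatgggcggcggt
Eci2: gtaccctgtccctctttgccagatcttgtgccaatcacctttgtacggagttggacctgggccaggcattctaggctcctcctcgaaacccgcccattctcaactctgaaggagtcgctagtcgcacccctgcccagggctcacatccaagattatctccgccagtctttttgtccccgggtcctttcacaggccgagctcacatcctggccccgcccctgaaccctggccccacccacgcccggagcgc
Acot2: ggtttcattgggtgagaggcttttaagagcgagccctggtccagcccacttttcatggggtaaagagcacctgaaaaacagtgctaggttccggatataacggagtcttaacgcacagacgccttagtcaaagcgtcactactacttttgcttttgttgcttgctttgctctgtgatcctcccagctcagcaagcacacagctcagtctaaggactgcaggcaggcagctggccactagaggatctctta
Their base composition is far apart, with 48.0% G and C upstream of Ppargc1a, 50.4% for Acot2, 61.2% for Eci2, 64.0% for Acadm and 75.6% for Acsl3.

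Promoters of 300 bases, from 250 before to 50 after a start, were matched for 28 of the 32 genes, in 31 windows. Those of Hadha and Hadhb overlap, because the 2 genes of the trifunctional protein start head to head on chromosome 5. None of the 31 windows held the glucocorticoid receptor element (AGAACA, 3 bases of any kind, then TGTTCT) with up to 1 mismatch, which 0.164% of 32851 promoters held. The PPAR element of 2 AGGTCA hexamers in direct repeat with 1 base between them was also in none, and in 0.554% of all promoters. Both were searched on both strands. A single AGGTCA, the unit of the PPAR element, was in 7 of 31 windows (22.6%), of Acadm, Acadvl, Cpt1a, Pparg, Rxra and Ucp3, beside 16.3% of all promoters. A single AGAACA, the unit of the glucocorticoid receptor element, was in 3 (9.68%), of Acot1, Acsl5 and Hadh, beside 19.0%. These counts describe letters in a short window only, and member windows were richer in G and C (median 58.8%) than all promoters (52.4%).

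Among the receptors and their partners, both PGC-1 coactivator genes and Ppard were higher at 24 h with Dex, and none of the 6 genes was called at 6 h. The largest rise of the 32 genes was in Ppargc1b (chr18:61291445-61400756), which codes for PGC-1beta. Its intensity was 379, 346, 299.5, 280.4 and 384 on the 5 ethanol arrays at 24 h and 431, 474, 504.5, 520.5 and 487 on the 5 Dex arrays. Every Dex array exceeded every ethanol array. The means were 338 ± 46.6 and 483 ± 34.2 (SD, n = 5 each), a rise of 0.52 on the log2 scale (SE 0.097, 1.44-fold, limma's adjusted p = 0.000481, and 0.00217 with the missing directions as covariates). The 6 h arrays read 717, 675, 921 and 859 with ethanol and 721.5, 709.7, 878 and 912 with Dex, which overlap throughout, with a difference of 0.025 (95% interval -0.20 to 0.25).

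Ppargc1a (chr5:51454249-52115853), the gene of PGC-1alpha, a coactivator of mitochondrial and oxidative genes, was read by a dim probe. At 24 h it measured 109.6, 118, 118 and 111 on ethanol replicates 2 to 5, less than these on ethanol replicate 1, and 164, 132, 138.5, 127 and 139.6 with Dex. The means were 111 ± 7.51 and 140.3 ± 14.1 (SD, n = 5 each). The groups did not overlap, and Dex replicate 1 was the highest of all. The rise was 0.33 (SE 0.072, 1.26-fold, limma's adjusted p = 0.00255, with the covariates 0.0137). Without both arrays numbered 1 it was 0.23 (adjusted p = 0.0304). The size moved with the setting. With 50 subtracted from every intensity the rise was 0.55 (adjusted p = 0.00561). The mean of its 2 probes gave 0.18 (adjusted p = 0.00639), the dimmer probe differing by 0.021. At 6 h the difference was 0.023 (95% interval -0.14 to 0.19).

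Ppard (chr17:28232754-28301469) codes for PPARdelta, the PPAR most tied to fatty acid oxidation in muscle. It read 839.5, 741, 678, 809 and 706 with ethanol and 783, 971, 939.6, 888 and 885 with Dex at 24 h, and the groups overlapped through Dex replicate 1, below the 2 highest ethanol arrays. The rise was 0.24 (SE 0.075, limma's adjusted p = 0.0274), and the call ended in the fit with the covariates (adjusted p = 0.0842). It also ended when ethanol replicate 2, 3 or 5 or Dex replicate 2 or 3 of 24 h was left out, with adjusted p-values of 0.0580 to 0.0831, and with 50 subtracted from every intensity (0.0529). The 6 h difference was -0.11 (95% interval -0.28 to 0.064).

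The other receptor genes were not called at either time. Pparg, the adipocyte-type PPAR, measured 332 ± 38.1 with ethanol and 371 ± 33.9 with Dex at 24 h, a difference of 0.16 (95% interval -0.0083 to 0.34), and 0.074 at 6 h. Rxra, the shared DNA-binding partner, differed by 0.15 at 6 h and 0.18 at 24 h (limma's adjusted p = 0.222 and 0.0731). At 24 h Rxra passed when each time was fitted alone (0.0361), with array weights (0.0171) and without ethanol replicate 1 of 6 h (0.0392). At 6 h it passed without that same array (0.0393), and Pparg at 24 h passed without both arrays numbered 1 (0.0473). Ppara, the PPAR best known from liver, lay between 66.2 and 97.3 on all arrays, near or below the array medians. Its differences were -0.023 and -0.068.

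**Figure D2:**
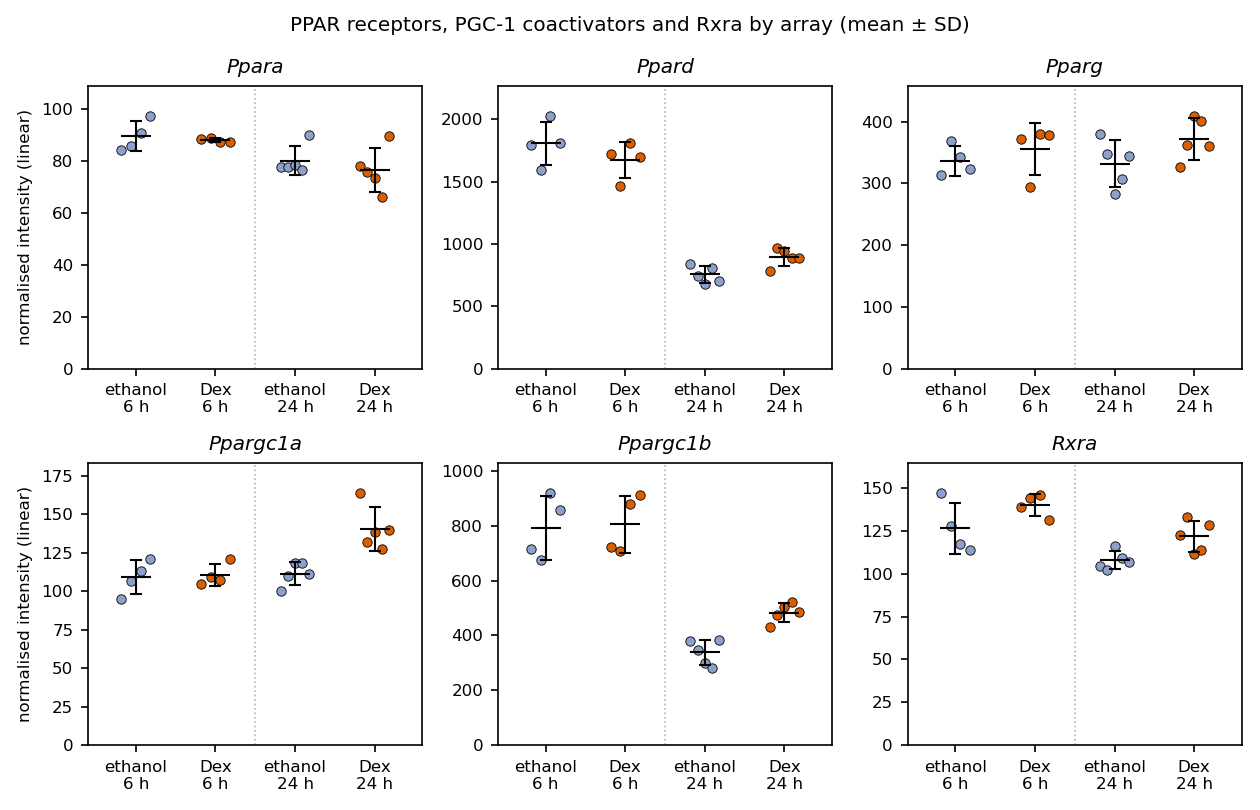
Linear normalised intensity of the 3 PPAR genes, the 2 PGC-1 genes and Rxra on each array, by agent and time, with mean and SD (4 arrays a group at 6 h, 5 at 24 h); a dotted line parts the times, whose levels are not compared. At 24 h all 5 Dex arrays lie above all 5 ethanol arrays for Ppargc1a and Ppargc1b and overlap for the other 4 genes.

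Whether the Dex effect differed between the times was tested by the interaction, the effect at 24 h minus that at 6 h. It was called for 2 of the 32 genes (6.25%), beside 4.94% of all genes: Ppargc1b at 0.50 (SE 0.15, limma's adjusted p = 0.0473) and Acsl3 at -0.36 (SE 0.10, adjusted p = 0.047). Both calls lay just inside the threshold and ended once the missing directions were covariates, at 0.141 and 0.169. Of 8 other settings, 4 kept the call of Ppargc1b and 3 that of Acsl3. With single arrays left out, the call of Ppargc1b was kept in 7 of 18 cases, namely without ethanol replicate 1 or 2 or Dex replicate 3 or 4 of 6 h, or ethanol replicate 1 or 5 or Dex replicate 1 of 24 h (adjusted p of 0.0635 to 0.101 in the others). That of Acsl3 was kept in 4 of 18, without ethanol replicate 3 or Dex replicate 1 or 2 of 6 h or Dex replicate 4 of 24 h (0.0504 to 0.101 in the others). The interaction of Ppargc1a was 0.31 (adjusted p = 0.104) and that of Ppard 0.35 (adjusted p = 0.0699), neither called. Ppard passed without ethanol replicate 2 of 6 h (0.0362), without Dex replicate 1 of 24 h (0.0397) and without both 24 h arrays numbered 1 (0.0271), and Ppargc1a without ethanol replicate 1 of 6 h (0.0404).

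In fatty acid activation, 1 of the 3 measured synthetase genes fell at 24 h and none at 6 h, by the brightest probe. The 24 h share was 33.3% of 3 genes, beside 16.5% of all genes. Acsl3 (chr1:78657825-78707743), whose enzyme sits at the endoplasmic reticulum and on lipid droplets, read 4504, 4498, 4678, 4336 and 4826 on the ethanol arrays and 3588, 3567, 3530, 3780 and 3352 on the Dex arrays. The highest Dex array was below the lowest ethanol array. From 4568 ± 188 to 3563 ± 152.5 (SD, n = 5 each) the log2 value fell by 0.36 (SE 0.070, 0.78 of the ethanol level, limma's adjusted p = 0.000838, with the covariates 0.0061). At 6 h the difference was 0.0020 (95% interval -0.16 to 0.16). The gene's other 2 probes, far dimmer, differed by -0.14 and 0.028 at 24 h and were not called, and the mean of the 3 probes was -0.16 (adjusted p = 0.0315). Acsl4, which prefers arachidonate, and Acsl5, a synthetase of mitochondria and the endoplasmic reticulum, differed by -0.048 and -0.061 at 24 h and were not called. A second, dimmer Acsl5 probe was called lower at 24 h, at -0.26 (adjusted p over all probes = 0.00217), where the brightest one was not. At 6 h a dimmer Acsl4 probe was called lower, at -0.32 (adjusted p over all probes = 0.0331), with the brightest one at 0.0051.

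No gene of the carnitine shuttle was called at 6 h or 24 h. The 2 genes of carnitine palmitoyltransferase 1, the entry step and the site of inhibition by malonyl-CoA, were both dim. Cpt1b, the muscle form, read 117, 104, 125, 118 and 127 with ethanol and 113, 144.5, 111, 114 and 113 with Dex at 24 h, where Dex replicate 2 stood above the rest, and the difference was 0.0064 (95% interval -0.15 to 0.16). At 6 h it was 0.13 (95% interval -0.042 to 0.31). Cpt1a, the liver form, read 73.4, 75.4, 75.1, 77.3 and 76.8 with ethanol and 87.4, 80.3, 86.5, 82.2 and 79.3 with Dex at 24 h. These groups did not overlap, yet the values lay near or below the array median, and the difference of 0.14 missed the threshold (limma's adjusted p = 0.116). It passed when the 24 h arrays were fitted alone, with array weights and with 50 subtracted from every intensity (adjusted p = 0.0335, 0.00992 and 0.0326). Cpt2, the inner-membrane transferase, differed by 0.12 at 6 h and -0.12 at 24 h, and Slc25a20, the carnitine-acylcarnitine translocase, by -0.11 and 0.065.

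In the beta-oxidation spiral, 1 of 9 genes fell at 6 h, and at 24 h 1 rose and 1 fell. That is 11.1% and 22.2% of the 9, beside 9.06% and 16.5% of all genes, shares not far apart for so few genes. Acaa2 (chr18:74779212-74806207), the mitochondrial thiolase of the last step, had the largest fall of the 32 genes at 24 h. Ethanol arrays read 1423, 1278, 1273, 1335 and 1456 and Dex arrays 968, 1123, 1064, 1016 and 995. The groups lay apart, with means of 1353 ± 83.1 and 1033 ± 61.3 (SD, n = 5 each). The log2 value fell by 0.39 (SE 0.069, 0.76 of the ethanol level, limma's adjusted p = 0.00032, with the covariates 0.00282). Of its 4 probes, 3 were called lower at 24 h (-0.39, -0.26 and -0.25) and the dimmest was not (-0.072). At 6 h the brightest probe differed by -0.19 (limma's adjusted p = 0.134), with ethanol at 1254, 1557, 1244 and 1498 and Dex at 1261, 1098, 1310 and 1180, and the groups overlapped. All 4 probes were below 0 at 6 h, from -0.28 to -0.19. The one at -0.28 was called (adjusted p over all probes = 0.00887), and so was their mean (-0.22, adjusted p = 0.00459).

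Acadm (chr3:153922353-153944643), the medium-chain acyl-CoA dehydrogenase, read 4115, 3888, 3997, 4229 and 4434 with ethanol and 4722, 5037, 4874, 4418 and 4620 with Dex at 24 h. The lowest Dex array was just below the highest ethanol array. The rise of 0.20 (SE 0.064, 1.15-fold, limma's adjusted p = 0.0361) was not called in the fit with the covariates (adjusted p = 0.119). The call also ended without ethanol replicate 1, 2 or 3 or Dex replicate 1, 2, 3 or 5 of 24 h, with adjusted p-values of 0.0503 to 0.0990. Of 9 other settings 4 kept it. Besides the covariates it was lost with the replicate number as a block (0.0636) and quantile normalization within each time (0.0631). It was also lost with 50 subtracted from every intensity (0.0763) and both arrays numbered 1 left out (0.0911). At 6 h the difference was 0.014 (95% interval -0.13 to 0.16).

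The 3 other acyl-CoA dehydrogenase genes, which take chains of other lengths, were not called. Acadl, the long-chain enzyme, differed by -0.25 at 6 h and -0.27 at 24 h, where the Dex arrays (773 to 872) all lay below the ethanol arrays (945 to 1130), limma's adjusted p being 0.126. It passed at 24 h with the replicate number as a block (0.0201), when each time was fitted alone (0.00367) and with array weights (0.0410). At 6 h it passed without ethanol replicate 1 (0.0436). A second Acadl probe pointed the other way at 24 h (0.23, not called). Acadvl, the very-long-chain enzyme, was 0.25 at 6 h and -0.17 at 24 h (limma's adjusted p = 0.0934 and 0.184). At 24 h it passed when each time was fitted alone (0.0089) and with array weights (0.0365). At 6 h it passed with the replicate number as a block (0.0481), without ethanol replicate 1 (0.0317) and without Dex replicate 4 (0.00811). The effect at 24 h minus that at 6 h was -0.42, just outside the threshold (adjusted p = 0.0511), and inside it in 6 alternatives, among them array weights (0.0301). A second Acadvl probe, nearly as bright, differed by 0.11 at 6 h and -0.065 at 24 h. Its effect at 24 h minus that at 6 h was -0.17, not called (adjusted p over all probes = 0.295). Acads, the short-chain enzyme, was 0.20 and -0.0034, and passed at 6 h without Dex replicate 4 (0.0358). A second, dimmer Acads probe pointed the other way at 6 h (-0.27) and was -0.19 at 24 h, neither called.

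Hadh (chr3:131233419-131272101), the short-chain 3-hydroxyacyl-CoA dehydrogenase, was the only member called at 6 h. It read 144, 125.5, 149 and 136.5 with ethanol and 116, 122.5, 115 and 118 with Dex, 2 groups that did not overlap but sat near the array median. The log2 value fell by 0.23 (SE 0.070, limma's adjusted p = 0.0365). This call ended with the covariates (adjusted p = 0.139), and without ethanol replicate 1, 3 or 4 or Dex replicate 1, 3 or 4 of 6 h (adjusted p from 0.0587 to 0.124). Of 9 other settings 3 kept it. Its second probe differed by -0.030. Hadhb, the beta subunit of the trifunctional protein, read 3925, 3829, 4479 and 4002 with ethanol and 3593, 3674, 3375 and 3812 with Dex at 6 h, again without overlap, a difference of -0.17 that was not called (limma's adjusted p = 0.197). At 24 h Hadh differed by 0.067 and Hadhb by 0.12. Hadha, the alpha subunit, had a single probe near the array median, which differed by -0.028 and -0.0083. The annotation ties that probe to a sequence other than a RefSeq transcript, and whether it reads the Hadha mRNA was not tested. The peroxisomal thiolase gene Acaa1a was 0.13 at 6 h and -0.029 at 24 h, neither called.

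**Figure D3:**
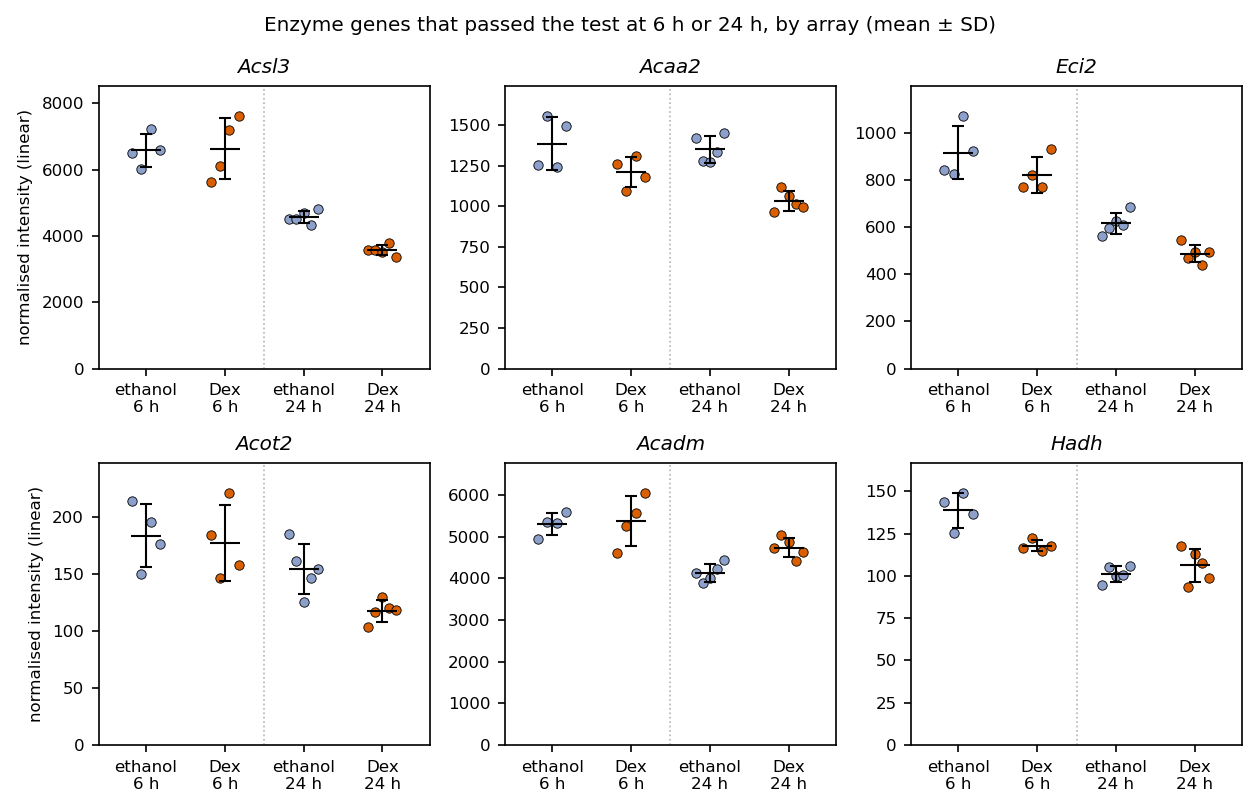
Linear normalised intensity of the 6 enzyme genes called at 6 h or 24 h on each array, by agent and time, with mean and SD (4 arrays a group at 6 h, 5 at 24 h); the dotted line parts the times. At 24 h the Dex arrays of Acsl3, Acaa2 and Eci2 lie below all ethanol arrays, those of Acot2 and Acadm overlap with them, and Hadh is set apart at 6 h only.

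Among the 4 enzymes for unsaturated chains, 1 fell at 24 h (25.0%, beside 16.5% of all genes) and none was called at 6 h. Eci2 (chr13:34977748-35027115), an enoyl-CoA isomerase that moves double bonds so that the spiral can go on, read 562, 598, 628, 609 and 684 with ethanol and 544, 471, 494, 439.6 and 494 with Dex at 24 h. The highest Dex array, replicate 1, was below the lowest ethanol array, also replicate 1. The log2 value fell by 0.34 (SE 0.075, 0.79 of the ethanol level, limma's adjusted p = 0.00303, with the covariates 0.015). Its 6 h difference was -0.15 (95% interval -0.32 to 0.023). Its relative Eci1 differed by -0.13 and -0.12, and Decr1, the dienoyl-CoA reductase, by 0.15 and 0.083. Ech1, a dienoyl-CoA isomerase, was 0.21 at 6 h (limma's adjusted p = 0.0608) and 0.10 at 24 h.

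The 3 genes of electron transfer, Etfa and Etfb for the subunits of electron transfer flavoprotein and Etfdh for its dehydrogenase, were not called at either time. Their differences ran from -0.13 to 0.038 at 6 h and from -0.054 to 0.13 at 24 h. One of the other Etfa probes was called lower at 6 h (-0.22, adjusted p over all probes = 0.0455), and a dim Etfdh probe was called lower at 24 h (-0.22, adjusted p = 0.0171).

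Of the 3 genes of the thioesterases and the uncoupling protein, 1 fell at 24 h (33.3%, beside 16.5% of all genes). This was Acot2 (chr12:83987861-83993877). It codes for the mitochondrial acyl-CoA thioesterase. Ethanol arrays read 185, 162, 125, 147 and 155 and Dex arrays 104, 117, 130.2, 121 and 119. Ethanol replicate 3 lay among the Dex arrays, and ethanol replicate 1 was the highest of all 10. The log2 value fell by 0.38 (SE 0.11, 0.77 of the ethanol level, limma's adjusted p = 0.0161, with the covariates 0.0411). Without ethanol replicate 1 the difference was -0.32 and not called (adjusted p = 0.0538), and without both 24 h arrays numbered 1 it was -0.27 (adjusted p = 0.122). With 50 subtracted from every intensity it was -0.61 (adjusted p = 0.0191), and as the mean of its 3 probes -0.17 (adjusted p = 0.0331). Acot1, the cytosolic thioesterase, which lies beside Acot2 on chromosome 12 and is close to it in sequence, differed by 0.074 and 0.090, and whether a probe of one also binds RNA of the other was not tested. Its dimmest probe was called higher at 24 h (0.20, adjusted p over all probes = 0.0296). Ucp3, the muscle uncoupling protein, lay near the array median and differed by 0.041 and 0.015.

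The 32 genes had 69 probes in all, 11 genes having 1 probe and 21 several. Of the 8 genes called at 24 h, Acaa2 alone had a second probe that passed as well. Ppargc1b, Acadm and Eci2 had a single probe, and the other probes of Ppargc1a, Ppard, Acsl3 and Acot2 were dimmer and not called.

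**Figure D4:**
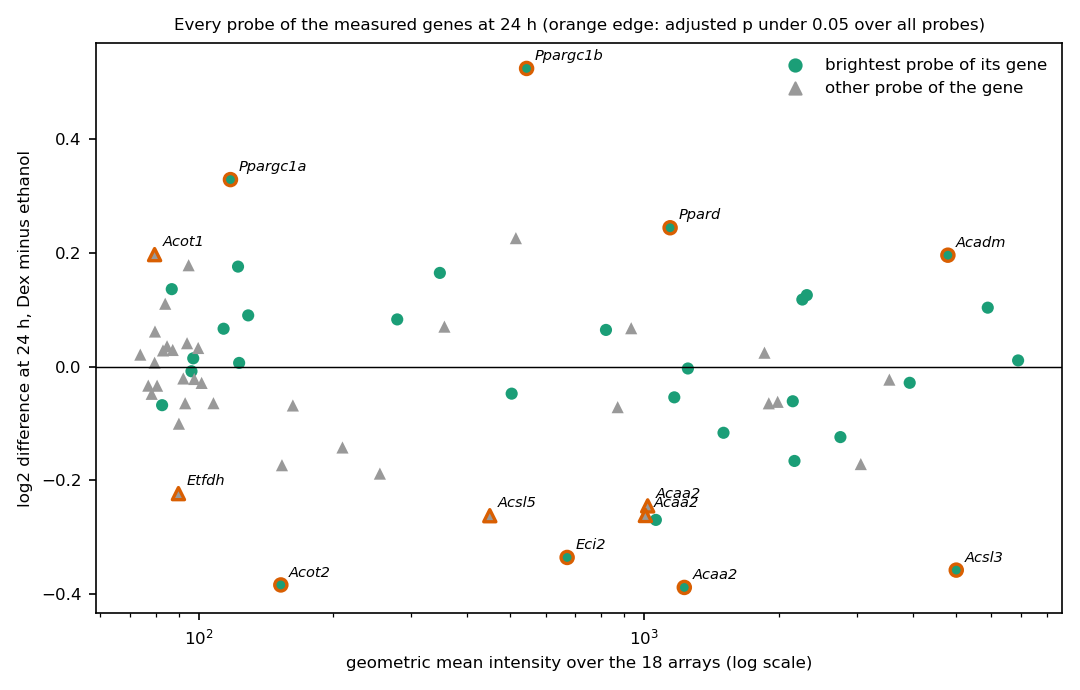
Each of the 69 probes of the 32 genes, by its geometric mean intensity over the 18 arrays (log scale) and its log2 difference between Dex and ethanol at 24 h; green circles are the brightest probe of a gene, grey triangles its other probes. An orange edge marks an adjusted p under 0.05 over all probes; 3 Acaa2 probes carry it, from -0.39 to -0.25.

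Genes that act beside the 32 were read from 5 further lists. Among 11 measured other PPAR targets, 1 rose and 3 fell at 6 h, and 1 rose and 2 fell at 24 h. These were 36.4% and 27.3% of the list, beside 9.06% and 16.5% of all genes. Pdk4, the kinase that inhibits pyruvate dehydrogenase and so spares glucose, rose by 1.78 at 6 h and 2.29 at 24 h (SE 0.17 and 0.15, limma's adjusted p = 6.83e-08 and 7.69e-11). Its 24 h arrays read 459, 426, 313, 291 and 302 with ethanol and 1290, 1561, 1636, 2096 and 2162 with Dex. Angptl4, a secreted inhibitor of lipoprotein lipase, went the other way, with 913, 828, 966, 1137 and 991 against 386, 446, 394, 351 and 343 at 24 h. It fell by 0.89 at 6 h and fell by 1.33 at 24 h (limma's adjusted p = 9.19e-06 and 1.33e-09). With the covariates the calls of Pdk4 and Angptl4 held at both times (adjusted p of at most 5.78e-05). Fgf21, a secreted metabolic hormone, fell by 2.29 at 24 h (limma's adjusted p = 4.67e-05, with the covariates 0.000116), and Plin2, a lipid droplet coat protein, fell by 0.25 at 6 h, the latter not with the covariates (adjusted p = 0.101). Fabp3, the muscle fatty acid-binding protein, named here after its value was seen, fell by 0.42 at 6 h (with the covariates, adjusted p = 0.0966).

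Of 10 measured genes of fatty acid uptake and binding, 1 fell at 6 h and 4 rose at 24 h. Of all genes, 9.06% were called at 6 h and 16.5% at 24 h, so the 6 h count was near the share of all genes. Lpl, lipoprotein lipase, which frees fatty acids from circulating triglyceride, changed in opposite directions. It read 489, 629, 570.4 and 559.6 with ethanol and 419, 334, 321 and 346 with Dex at 6 h, a difference of -0.67, and 335, 372, 248, 230.0 and 324 against 422, 321, 495, 498 and 483 at 24 h, a rise of 0.56 (limma's adjusted p = 0.00271 and 0.00284, with the covariates 0.00808 and 0.00824). The effect at 24 h minus that at 6 h was 1.23 (SE 0.19, limma's adjusted p = 0.000465, with the covariates 0.00194). The fatty acid transport protein genes Slc27a1 and Slc27a3 rose by 0.34 and 0.30 at 24 h (with the covariates, adjusted p = 0.0297 and 0.0836). The fourth was Acsl6, another acyl-CoA synthetase, at 0.22, named here after its value was seen and not called with the covariates (adjusted p = 0.124).

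Among 11 genes of malonyl-CoA control and AMP-activated protein kinase, 1 rose and 1 fell at 6 h, and 3 rose and 1 fell at 24 h. These were 18.2% and 36.4% of the list, beside 9.06% and 16.5% of all genes. Prkaa2, a catalytic subunit of the kinase, rose by 0.45 at 6 h and 0.29 at 24 h, and at 24 h so did Prkaa1, the other catalytic subunit, by 0.21 and Stk11, the upstream kinase LKB1, by 0.20. Mlycd, which breaks down malonyl-CoA, fell by 0.28 at 6 h and fell by 0.20 at 24 h. With the missing directions as covariates only Prkaa2 at 6 h stayed called (adjusted p = 0.0135). Of 15 measured peroxisomal and side-chain genes none was called at 6 h, and none passed with the covariates. An unadjusted p under 0.05 in limma was reached by 2 of them, beside 4232 of all 19057 genes. At 24 h 1 fell (6.67% of the list), Acad9, an acyl-CoA dehydrogenase also needed for complex I assembly, by 0.38 (limma's adjusted p = 0.00036, with the covariates 0.00309).

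Of 17 measured other partners of PPARs and PGC-1, 2 rose and 2 fell at 6 h and 3 rose at 24 h. These were 23.5% and 17.65% of the list, beside 9.06% and 16.5% of all genes, so the 24 h share was near that of all genes. Esrra, the oestrogen-related receptor ERRalpha through which PGC-1 coactivators act on oxidative genes, rose from 899.8 ± 53.2 to 1150 ± 114 at 24 h (SD, n = 5 each), by 0.35 (SE 0.060, limma's adjusted p = 0.000191, with the covariates 0.00276). Pprc1, a PGC-1-related coactivator, rose by 0.25 and 0.25, and Rxrg, a retinoid X receptor, by 0.19 at 24 h, none of these with the covariates (adjusted p from 0.0610 to 0.145). At 6 h Med1, a Mediator subunit that binds PPARs, fell by 0.42, Esrrb, an oestrogen-related receptor, fell by 0.26, and Perm1, a muscle regulator of PGC-1 targets, rose by 0.22. Only Med1 kept its call with the covariates (adjusted p = 0.0126).

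A few markers of cell state were called at 24 h as well, when 16.5% of all genes were. Of the myotube list, Ckm, muscle creatine kinase, rose by 0.30 and Myog, a myogenic transcription factor, fell by 0.32 (with the covariates, adjusted p = 0.0404 and 0.0362). The other 8 measured myotube markers were not called, and the list's median was -0.036. Of the adipocyte list, Cebpa, an adipogenic transcription factor, rose by 0.44 (with the covariates, adjusted p = 0.00276), with summed adipocyte marker intensities of 550.3 to 600.0 with ethanol and 598 to 637 with Dex. The other 6 measured adipocyte markers were not called and lay near the array median on every array. The list's median was 0.0555 and its lowest value -0.14. Of 4 measured markers of proliferating myoblasts, Cdk1, a cell cycle kinase, rose by 0.43 (with the covariates, adjusted p = 0.00243), with sums over the list of 659.5 to 800.6 with ethanol and 765 to 964 with Dex. The other 3 were not called at 24 h, with Top2a at -0.19, Pax7 at -0.10 and Myf5 at 0.056, and the list's median was -0.022. At 6 h Myf5 rose by 0.33 (limma's adjusted p = 0.0175, with the covariates 0.0616), Cdk1 was at -0.058, and Bglap of the osteoblast list fell by 0.26 (with the covariates, adjusted p = 0.064). Myf5 and Bglap lay near the array median on every array. The part of all these markers in the differences of the 32 genes was not tested.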

How the data were processed

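RNA was measured on Illumina mouseWG-6 bead arrays in 18 samples, grouped by their own titles. The authors deposited linear normalised probe intensities made with lumi, per the submitters' processing notes; which version, background correction or normalization was used is not given in the sources used here. Detection p-values were not used here, so which probes lay above background is unknown, and background left in a dim intensity makes its fold change smaller. The lowest intensity of an array was 70.4 to 70.8 at 6 h but 60.4 to 61.2 at 24 h, so the times seem to have been normalized apart. The number of arrays limits the precision.

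Log2 was taken with a pseudocount of 0. Of 45281 probes, 34885 had 1 symbol in the platform annotation, 18 several and 10378 none; symbols were updated by gene identifier to GRCm38.p6 for 34807 and kept for 78. The brightest probe stood for each of 19057 genes. One limma 3.58.1 model in R 4.3.3 (lmFit, eBayes) with a mean for each of 4 groups gave Dex against ethanol at 6 h and 24 h and the interaction, with Benjamini-Hochberg adjustment over all genes and calls at an adjusted p under 0.05. The model was tested on simulated data with independent noise on each array, so that test does not cover the missing directions. Missing directions were found on 786 genes with a mean log2 value above 12.

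The members, lists, marker genes and tests were chosen with earlier results of these data known. All members are accounted for, and called members, the receptor genes and the CPT1 genes are named. From the other lists Pdk4, Angptl4 and Lpl are always named, as are up to 3 called genes with the smallest p per list and comparison. Of the osteoblast list, 4 of 4 markers lay near the array median on every array. The alternatives were the missing directions as covariates, the replicate number as a block, each time alone, quantile normalization within each time, the mean of a gene's probes, only genes above the median level, array weights, 50 subtracted from every intensity, both 24 h arrays numbered 1 left out, and each array left out in turn. Sequences are RefSeq's (GRCm38.p6), matched by symbol.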

Additional observations from a re-analysis of the deposited data

Results flagged for a closer look

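The effect of Dex at 24 h minus that at 6 h passed limma's interaction test for Ppargc1b, at 0.50, and for Acsl3, at -0.36, on the log2 scale. In 11 of 128 sets of 4 or 5 arrays of a gene and group, 1 array stood apart from the others by a gap that chance gives in about 1 of 20 sets. Among the Dex arrays of 24 h, replicate 1 was high for Acsl4 (555.5, the others between 420.1 and 449), Cpt2 (2396, the others between 2122 and 2198) and Hadhb (1751, the others between 1472 and 1534). In the same group, Cpt1b was high on replicate 2 (144.5, the others between 110.7 and 114). Replicate 2 of the ethanol arrays at 6 h was high for Eci1 (1930, the others between 1544 and 1592) and Etfa (8446, the others between 7787 and 7896). Replicate 4 of the ethanol arrays at 24 h was high for Etfdh (1164, the others between 1029 and 1059) and Acot1 (103.9, the others between 84.2 and 87.4). Ppara was high on ethanol replicate 5 at 24 h (90.1, the others between 76.5 and 78.6). Among the Dex arrays at 6 h, Ucp3 was high on replicate 1 (109.6, the others between 89.6 and 91.7) and Pparg low on replicate 2 (293, the others between 372 and 379). None of these genes apart from Ppargc1b and Acsl3 was called in a comparison.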

How the results depend on the processing

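At 24 h the calls of Acsl3, Acaa2, Eci2, Ppargc1a and Ppargc1b were kept under all 9 other settings and all 18 left-out arrays. Over all members, comparisons and settings, no called value changed its sign. At 6 h, 1 member rose, against 0, with the replicate block (Acadvl) and among genes above the median level (Ech1), and 0 fell, against 1, with the missing directions as covariates, the replicate block, each time fitted alone, array weights and 50 subtracted. At 24 h, 2 rose with the covariates and 7 with array weights, against 4. With each time fitted alone 6 rose and 6 fell, and with array weights 6 fell, against 4 and 4. The remaining settings other than left-out single arrays gave 3 or 4 rises and 3 to 5 falls. For the interaction, 0 rose and 0 fell, against 1 and 1, with the covariates, the mean of a gene's probes and 50 subtracted; 2 fell among genes above the median level and with array weights; and 2 rose and 0 fell without both 24 h arrays numbered 1. Each time fitted alone gives no interaction. With single arrays left out, 0 to 3 rose and 0 to 1 fell at 6 h, 2 to 5 rose and 3 to 4 fell at 24 h, and 0 to 3 rose and 0 to 1 fell for the interaction. Deviations of same-numbered arrays correlated at -0.080 to 0.26 at 6 h and, all below 0, at -0.93 to -0.19 at 24 h. The labels give no shared source and the numbers did not meet the rule for pairing (every correlation above 0.1), although at 24 h same-numbered arrays are tied in opposite directions. With the replicate block, 3 members rose and 5 fell at 24 h, where Acadm lost its call (adjusted p = 0.0636) and Acadl gained one (0.0201), and for the interaction Acsl3 lost its call (adjusted p = 0.0722) while Acadvl gained one (0.0271). Where a count moved, the cause was not tested. Signal over background limits most the 5 members near the array median, Cpt1a, Hadh, Hadha, Ucp3 and Ppara, and also other dim probes, among them those of Ppargc1a, Acot2 and Cpt1b, and 18 arrays limit small differences.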

Other observations

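Several genes of the spiral leaned one way at 6 h and the other at 24 h without passing the interaction test over all genes. Acadvl was 0.25 at 6 h and -0.17 at 24 h, a change of -0.42 (SE 0.12, limma's adjusted p = 0.0511). Hadh went from -0.23 to 0.067, a change of 0.30 (SE 0.093, adjusted p = 0.0639), and Hadhb from -0.17 to 0.12, a change of 0.28 (SE 0.10, adjusted p = 0.110). Cpt2, of the carnitine shuttle, went from 0.12 to -0.12, a change of -0.25 (SE 0.091, adjusted p = 0.120). In the fit with the missing directions as covariates these adjusted p-values were 0.161 for Acadvl, 0.230 for Hadh, 0.298 for Hadhb and 0.330 for Cpt2. These genes were picked after their values were seen. Other probes of Acadvl, Hadh and Cpt2 gave smaller changes, none of them called. They were -0.17 for Acadvl, 0.0655 for Hadh, and -0.15 and -0.056 for Cpt2.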
